A study of Mus musculus with 24 samples.

Results

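The step from the T1 to the T2FO stage of transitional B cells was followed in the spleen of C57BL/6J (B6) mice, across 18193 genes. T2FO and T1 are names of sorted subsets in the sample labels, and each was measured on 2 of the 24 arrays of the series, so that 4 arrays carry the comparison. All T2FO and T1 cells came from untreated female B6 mice aged 7 weeks. In each of 2 experiments, splenocytes of 8 mice were pooled, CD3 and CD11b positive cells were removed, and cells were sorted by IgM, B220, CD21, CD23, CD24 and CD93. Replicate 1 of T2FO and replicate 1 of T1 therefore came from 1 pool of mice, and so did the replicates numbered 2. The B6 subsets T3 and T2MZ of the same pools shared the estimate of the spread, and the other arrays, the mature FO and MZ cells of B6 and the 12 arrays of NOD/ShiLtJ mice, entered alternatives only or helped to choose 1 probe set for each gene.

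Transitional B cells are the newly made B cells that have left the bone marrow and are still immature when they reach the spleen. They carry CD93, and at the T1 stage they are easily killed when their antigen receptor binds. Those that move on acquire CD21, CD23 and surface IgD, gain access to the survival factor BAFF and enter the follicle, or turn toward the marginal zone with signals through Notch2. The T2FO label names the transitional cells on the follicular side of this step.

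RNA was labelled in 2 rounds of amplification primed from the poly(A) tail and hybridised to Affymetrix mouse whole-genome arrays. The values are on a log scale, taken here as log2, and centred for each probe set on its median over the 24 arrays. A value of 0 is thus that median, and neither an expression level nor a detection call can be had. A difference of 1 is a factor of 2 if the log base is 2, which is not stated in the sources used here. Only 2 arrays a group limit the precision of every value. The arrays within a group lay further apart than the groups did. The difference between replicate 2 and replicate 1 had a root mean square over genes of 0.686 in T2FO and 0.631 in T1, against 0.208 for the difference between T2FO and T1. What separates the replicates was largely shared by both groups. The control probe set for the 5' end of beta-actin read -1.36 and -4.04 in T2FO replicates 1 and 2, and -0.77 and -3.65 in the same replicates of T1. Replicate 2 was thus low at the 5' end in both groups, and in each pair T2FO was lower than T1. Deviations of arrays from their group mean correlated at 0.87 over genes between T2FO and T1 of the same number. For these reasons values are compared within pairs, and a fit with the replicate number as a block was used. T2FO replicate 2 also stood apart from the other 3 arrays by transcripts of other cell types, described further on, and results that rest on it are given without it too.

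The transcripts of the sort markers were read as a check on the labels. Cd93 was 2.72 and 2.77 in T2FO and 3.14 and 2.98 in T1, well above the mature FO arrays at 0.17 and -0.56, so both groups had the transcript of the immature marker. Fcer2a, which encodes CD23, was 0.57 and -0.26 in T2FO and -1.70 and -1.42 in T1. Cr2, which encodes CD21, was -0.97 and -0.66 in T2FO and -1.83 and -1.62 in T1. Fcer2a and Cr2 were thus higher on both T2FO arrays than on either T1 array, as the gates would have it. Ptprc (0.40 ± 0.21, SE) and Cd24a (-0.04 ± 0.16) overlapped between the groups. Ighm could not serve, with -1.99 and 1.12 in T2FO against -1.71 and -0.55 in T1, and only 6 of its 11 probe sets pointing the same way.

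No gene passed the threshold of the limma fit to the 8 arrays of T1, T2FO, T3 and T2MZ with the replicate block. That is 0 higher and 0 lower in T2FO of 18193, and the smallest adjusted p was 0.367 (limma, Benjamini-Hochberg). At an unadjusted p under 0.05 there were 426 genes higher (2.34%) and 378 lower (2.08%), together 4.42%. The fit to the 4 arrays of T2FO and T1 alone, with the same block, called 37 genes (0.203%), of which 24 were higher in T2FO (0.132%) and 13 lower (0.0715%). That fit has 1 residual degree of freedom and leans on a prior worth 9.59, against 3 and 5.72 in the fit to 8 arrays. The 37 genes had adjusted p-values of 0.0058 to 0.0438 on 4 arrays and of 0.367 to 1.00 on 8 arrays, and the lowest in any other setting tried was 0.0742. Their differences kept their sign when any of the 4 arrays was left out, but no gene was called in any setting other than the 4 arrays. The 37 are therefore described below as the genes past the threshold of that 1 fit, and not as genes shown to have changed. Of them 30 did not overlap between the groups. As the fit chose the 37 on these same 4 arrays, the kept signs and the lack of overlap largely follow from that choice. Among all genes 7.92% lay higher in T2FO without overlap and 11.7% lower, and 24.1% were higher and 30.9% lower in both pairs.

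**Figure D1:**
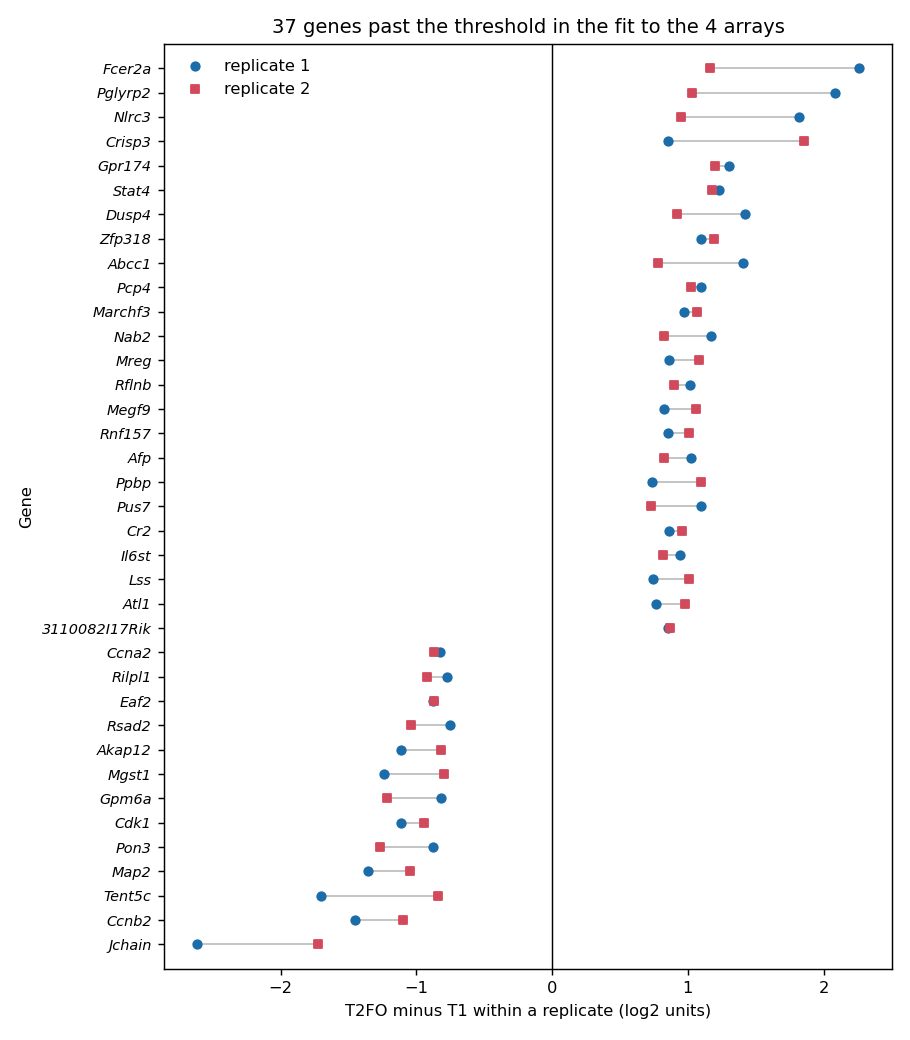
The 37 genes that passed the threshold in the fit to 4 arrays, with the difference T2FO minus T1 in log2 units on the horizontal axis and 1 gene per line. Circles are replicate 1 and squares replicate 2, joined by a grey line. In each gene both pairs lie on the same side of 0, from 2.26 in replicate 1 for Fcer2a to -2.61 in replicate 1 for Jchain. The genes were chosen by a fit to these same arrays.

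The genes of this set that were higher in T2FO include the receptor gene Fcer2a, genes of nuclear control and genes of signal transduction. They were chosen by that fit, after values were seen. Zfp318 encodes a nuclear protein needed for the long transcript that yields IgD. Its values were -0.47 and 0.36 in T2FO and -1.57 and -0.83 in T1, a difference of 1.14 ± 0.23, and all 5 of its probe sets were higher in T2FO, by 0.10 to 1.14. The T2FO arrays both lay above the T1 arrays. Stat4, a transcription factor of interleukin-12 signalling, was -1.60 and -0.77 in T2FO and -2.83 and -1.94 in T1. Its 2 pairs differed by 1.23 and 1.18. Dusp4 encodes a phosphatase that inactivates MAP kinases, and had 0.22 and 0.39 in T2FO against -1.196 and -0.53 in T1. Nab2, a corepressor of the EGR transcription factors, stood at 0.17 and -0.01 in T2FO and at -0.996 and -0.83 in T1. For these genes too the groups did not overlap.

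Further genes higher in T2FO in that fit were membrane receptors, enzymes and immune sensors. Pglyrp2, a peptidoglycan recognition protein, was -0.09 and -0.63 in T2FO and -2.17 and -1.66 in T1. Nlrc3, of the NOD-like receptor family, was -1.05 and -0.84 in T2FO and -2.87 and -1.78 in T1, with its second probe set higher by only 0.27. Both were larger in pair 1, at 2.08 and 1.82, than in pair 2, at 1.03 and 0.95. Gpr174 encodes a receptor for lysophosphatidylserine. It was -1.97 and -0.20 in T2FO and -3.27 and -1.40 in T1, so the groups overlapped although each pair differed by more than 1. Il6st, the signal-transducing chain of the interleukin-6 receptor family, differed by 0.88 ± 0.15, but 1 of its 4 probe sets went the other way, at -0.27. Lss, an enzyme of cholesterol synthesis, differed by 0.87 ± 0.20, with all 3 probe sets higher. Abcc1, an export pump of the ABC family, differed by 1.09 ± 0.18 and Marchf3, a ubiquitin ligase, by 1.02 ± 0.15. The second probe set of Abcc1 hardly differed (0.016), nor did 1 of the 3 of Marchf3 (-0.016). Cr2, given with the sort markers above, belongs to this set as well (0.91 ± 0.18). The remaining 11 were Crisp3, Pcp4, Mreg, Rflnb, Megf9, Rnf157, Afp, Ppbp, Pus7, Atl1 and 3110082I17Rik, with differences of 0.86 to 1.35.

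The 13 genes lower in T2FO in the fit to 4 arrays hold 3 genes of mitosis, 1 interferon-induced gene and the gene of the J chain. Map2, which encodes a protein that binds microtubules, was 0.62 and 0.72 in T2FO and 1.98 and 1.76 in T1. Its 4 probe sets were all lower in T2FO, by -1.204 to -0.13. Akap12, a scaffold for protein kinase A, was 0.55 and 0.51 in T2FO and 1.66 and 1.33 in T1. In both genes the T2FO arrays lay within 0.1 of each other and below both T1 arrays. Mgst1, a glutathione transferase of membranes, had 0.12 and 0.65 in T2FO and 1.36 and 1.45 in T1. Its second probe set differed by only -0.13. Eaf2, which acts with the elongation factor ELL, had 0.75 and 1.08 in T2FO and 1.63 and 1.95 in T1. Tent5c, a poly(A) polymerase, was lower by -1.70 in pair 1 and -0.84 in pair 2, while its values ran from -1.72 in T2FO replicate 1 to 2.38 in T1 replicate 2, so that the pools differed more than the stages. Pon3, Gpm6a and Rilpl1 were lower by -1.07, -1.02 and -0.85. Leaving out 1 of the 4 arrays moved the difference by over 1.5 times in 12 of the 37 genes. Without T1 replicate 1 it was 1.0004 for Pglyrp2, 0.87 for Nlrc3, 0.56 for Rflnb, -0.64 for Mgst1, -1.64 for Gpm6a, -0.52 for Tent5c, -0.34 for Ccna2, -0.59 for Cdk1, -0.67 for Ccnb2 and -1.001 for Jchain. Without T1 replicate 2 it was -0.40 for Gpm6a, -2.03 for Tent5c, -1.36 for Ccna2 and -3.34 for Jchain. Without T2FO replicate 1 it was 1.37 for Ppbp, 0.46 for Pus7, -0.67 for Gpm6a and -1.39 for Ccna2, and without T2FO replicate 2 it was 0.64 for Rflnb, 0.45 for Ppbp and -0.31 for Ccna2. Of the 20 genes among the 37 that have several probe sets, 12 had all of them on 1 side of 0, some of these near 0 (0.016 for Abcc1).

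**Figure D2:**
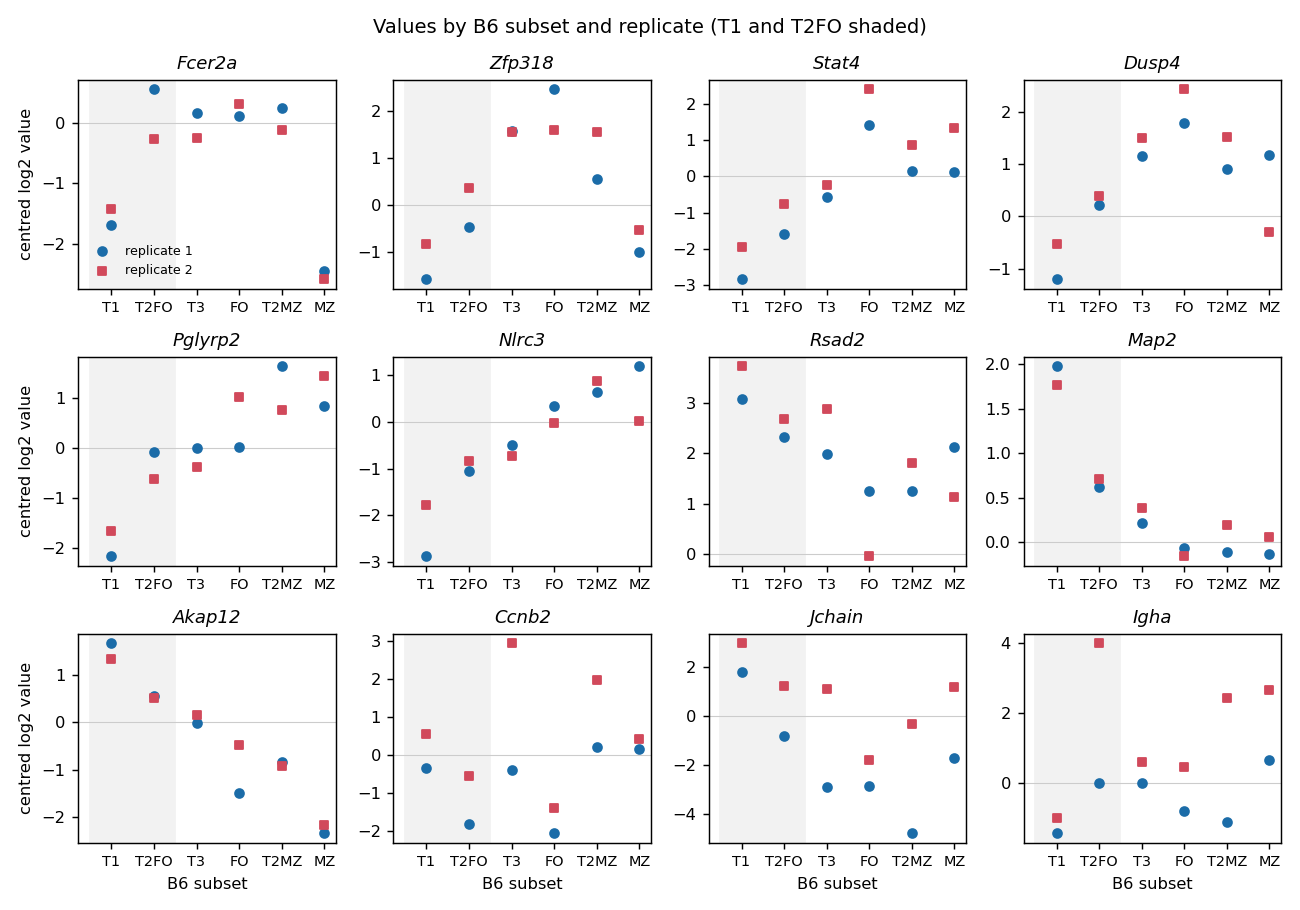
Centred log2 values of 12 genes in the 6 B6 subsets, with circles for replicate 1 and squares for replicate 2, and T1 and T2FO on a grey ground. Zfp318, Stat4 and Dusp4 stood higher in FO than in T2FO and T1, and by group mean also higher in T2MZ than in T2FO. Map2 was near 0 in FO. Igha was high in T2FO replicate 2 at 4.0, and stood at 2.42 in T2MZ replicate 2 and 2.67 in MZ replicate 2.

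The same genes are shown in the other B6 subsets for context, as values only, since those subsets share the T1 arrays as a starting point. Stat4 was -0.58 and -0.25 in T3 and 1.42 and 2.40 in FO, above its T2FO and T1 values. Zfp318 was 1.57 and 1.54 in T3 and 2.45 and 1.59 in FO. Dusp4 was 1.15 and 1.496 in T3 and 1.78 and 2.43 in FO. These genes stood in the order T1, T2FO, T3 and FO by group mean. The lower FO array of Zfp318 lay just above the T3 arrays. Fcer2a did not go on in that order, with 0.17 and -0.25 in T3 and 0.13 and 0.33 in FO, which overlap the T2FO values. Akap12 went down the same order, with -0.01 and 0.15 in T3 and -1.49 and -0.48 in FO. Eaf2 went down it by group mean too, with T3 arrays as far apart as -0.66 and 0.99 and FO arrays at -2.42 and -1.94. The replicate numbers of FO do not run with those of the transitional subsets, so pairs cannot be formed there. On the marginal zone side Stat4 was 0.14 and 0.88 in T2MZ and 0.13 and 1.32 in MZ. Dusp4 was 0.91 and 1.52 in T2MZ and 1.16 and -0.30 in MZ. Zfp318 was 0.56 and 1.55 in T2MZ but -0.99 and -0.54 in MZ. By group mean Stat4, Dusp4 and Zfp318 were thus higher in T2MZ than in T2FO too, and a rise past T2FO was not particular to the follicular side.

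A list of immature B cell and recombination genes, which holds recombination and surrogate light chain genes beside transcription factors and surface proteins of precursors, was measured for 13 of 14 genes. None was called. In both pairs 6 of the 13 were lower and 1 was higher, against 30.9% and 24.1% of all genes. The median difference was -0.24 against -0.02 for all genes. Rag1, a subunit of the recombinase, was 0.02 and 0.25 in T2FO and 1.08 and 0.78 in T1, with no overlap and a difference of -0.80 ± 0.21 (adjusted p = 0.953). Vpreb3, a surrogate light chain relative, was lower in both pairs at -1.02 and -0.34, but its arrays overlapped. Igll1, of the surrogate light chain, differed by -0.42 ± 0.15, and its second probe set by 0.51 in the other direction. Il7r, the interleukin-7 receptor chain, was split, at -0.59 in pair 1 and 2.50 in pair 2. Lef1, a transcription factor of lymphoid precursors, was the 1 member higher in both pairs. It was 0.82 and 0.56 in T2FO and -0.10 and -0.17 in T1 (0.82 ± 0.16, adjusted p = 0.624). The second probe set of Lef1 was higher by only 0.06. Averaging the probe sets of each gene, the list median was -0.03, no longer apart from that of all genes.

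Survival genes had a median of 0.02 over 14 measured members, like that of all genes, and none was called. Bcl2, which protects cells from apoptosis, was -0.59 and -0.77 in T2FO and -1.65 and -1.39 in T1. Both T2FO arrays lay above both T1 arrays, and all 5 probe sets were higher, by 0.42 to 1.14 (difference 0.84 ± 0.18, adjusted p = 0.661). Bmf, which promotes apoptosis, was 0.79 and 0.60 in T2FO and 1.46 and 1.08 in T1. The groups did not overlap, but 1 of its 3 probe sets stood at 0.14. Bcl2l11 (0.03 ± 0.15) and Mcl1 (0.01 ± 0.16), a death and a survival gene of the same family, hardly differed in size. Among BAFF receptors and NF-kB genes 12 of 15 were measured, 0 were called, and the median was 0.06. Tnfrsf13c, the BAFF receptor, differed by -0.16 ± 0.15, and Ikbkb, a kinase that activates NF-kB, by 0.41 ± 0.15. Only 3 of the 5 probe sets of Ikbkb were higher, and the 5 ranged from -0.11 to 0.41.

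Antigen receptor signalling was measured for 26 of 29 genes, with 0 called and a median of -0.03. In both pairs 12 were lower and 2 higher, against 30.9% and 24.1% of all genes. Rasgrp3, which links the receptor to Ras, was the gene with the largest positive difference, 0.47 ± 0.15, and Dok3, an inhibitory adaptor, stood at -0.37 ± 0.16. Cd79a and Cd79b, the signalling chains of the receptor, differed by -0.27 ± 0.18 and -0.32 ± 0.20, less than the values of their own arrays differed between pools. Coreceptors and IgD genes had 16 of 18 measured, 0 called on 8 arrays, 1 on 4 arrays (Zfp318) and a median of -0.05. Fcgr2b, the inhibitory Fc receptor, was -0.82 and -0.76 in T2FO and -0.27 and -0.40 in T1, with all 5 probe sets lower. Ms4a1, which encodes CD20, differed by -0.13 ± 0.15.

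Transcripts that follow receptor stimulation did not move as 1 group. Of 19 immediate early genes 8 were higher and 5 lower in both pairs, against 24.1% and 30.9% of all genes. There were 0 called, and the median was 0.02. Nr4a1, an orphan nuclear receptor induced by the antigen receptor, was -0.30 and 0.54 in T2FO and -1.20 and -0.12 in T1, higher in each pair by 0.90 and 0.66. Egr3, a transcription factor of the same response, was higher by 0.84 and 0.69, with a second probe set at -0.06. Atf3, a stress-induced factor, was lower by -0.61 and -0.92. Fos, Junb and Ier2 lay between 0.02 and 0.14. Heat shock genes, 8 of 8 measured with 0 called, split between the pairs, with a list median of 0.33 in pair 1 and -0.40 in pair 2. Hspa1b, a heat shock protein of the HSP70 family whose sequence is close to that of Hspa1a, was 0.37 in pair 1 and -1.53 in pair 2. Dnajb1, a cochaperone, was lower in both at -0.27 and -0.46.

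Lineage transcription factors were measured for 25 of 25 genes, with 0 called and a median of -0.04. Myc, a driver of growth, was -1.07 and -0.34 in T2FO and -1.95 and -0.70 in T1. Bcl6, a transcriptional repressor that acts in germinal centre B cells, was -0.19 and 0.82 in T2FO and -0.65 and 0.23 in T1. Each was higher in both pairs with overlapping groups. Pax5 (0.18 ± 0.16), Ebf1 (-0.27 ± 0.24) and Foxo1 (-0.03 ± 0.19), which hold B cell identity, had differences near their standard error or below. In the list of quiescence factors and D cyclins 14 of 17 genes were lower in both pairs, against 30.9% of all genes, but the differences were small. The median was -0.17, 0 were called and none had an unadjusted p under 0.05. T2FO lay lower without overlap for 2, near the 11.7% of all genes. Klf2, a keeper of quiescence in lymphocytes, differed by -0.25 ± 0.21, and Klf3 by -0.34 ± 0.16 with 2 of 7 probe sets the other way. Ccnd2, a D cyclin of B cells, was the 1 member higher in both pairs, by 0.42 and 0.32, with all 7 probe sets higher.

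Migration genes had 24 of 25 measured, 0 called and a median of 0.03, with a few members apart. Ccr6, a chemokine receptor, was -1.04 and -1.505 in T2FO and -1.68 and -2.35 in T1, above T1 without overlap (0.75 ± 0.15, adjusted p = 0.661). Gpr183, an oxysterol receptor that positions B cells in the follicle, was -0.54 and -0.51 in T2FO and -1.09 and -1.41 in T1. Both of its probe sets were higher, by 0.52 and 0.72. Rgs13, which dampens chemokine signalling, was -0.14 and 1.77 in T2FO and -0.81 and 0.14 in T1. Cxcr5, the receptor for the follicular chemokine, differed by 0.07 ± 0.19, Ccr7 by 0.01 ± 0.16 and S1pr1 by -0.24 ± 0.29. For antigen presentation and costimulation 15 of 16 genes were measured, 0 called, and the median was 0.04. Icosl, the ligand of ICOS, was 0.11 and -0.98 in T2FO and -0.82 and -1.67 in T1, higher in both pairs. Cd83 differed by 0.49 ± 0.18, and H2-Ab1, a class II chain, by 0.15 ± 0.21.

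Notch genes, 13 of 13 measured with 0 called, had a median of 0.05, and marginal zone genes, 10 of 10 measured with 0 called, one of -0.08. Hes5, a Notch target, was 0.33 and 0.06 in T2FO and -0.03 and -0.50 in T1, although its second probe set did not differ (-0.01). Notch1 differed by -0.27 ± 0.16 and Notch2 by -0.02 ± 0.19. Plac8 was lower in both pairs at -0.25 and -0.77, and Mzb1, a chaperone of immunoglobulin assembly, at -0.40 and -0.41. Of the Toll-like receptor list 14 of 15 genes were measured, 0 were called, and the median was 0.01. Tlr9 differed by -0.25 ± 0.16 and Tlr1 by 0.31 ± 0.17.

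**Figure D3:**
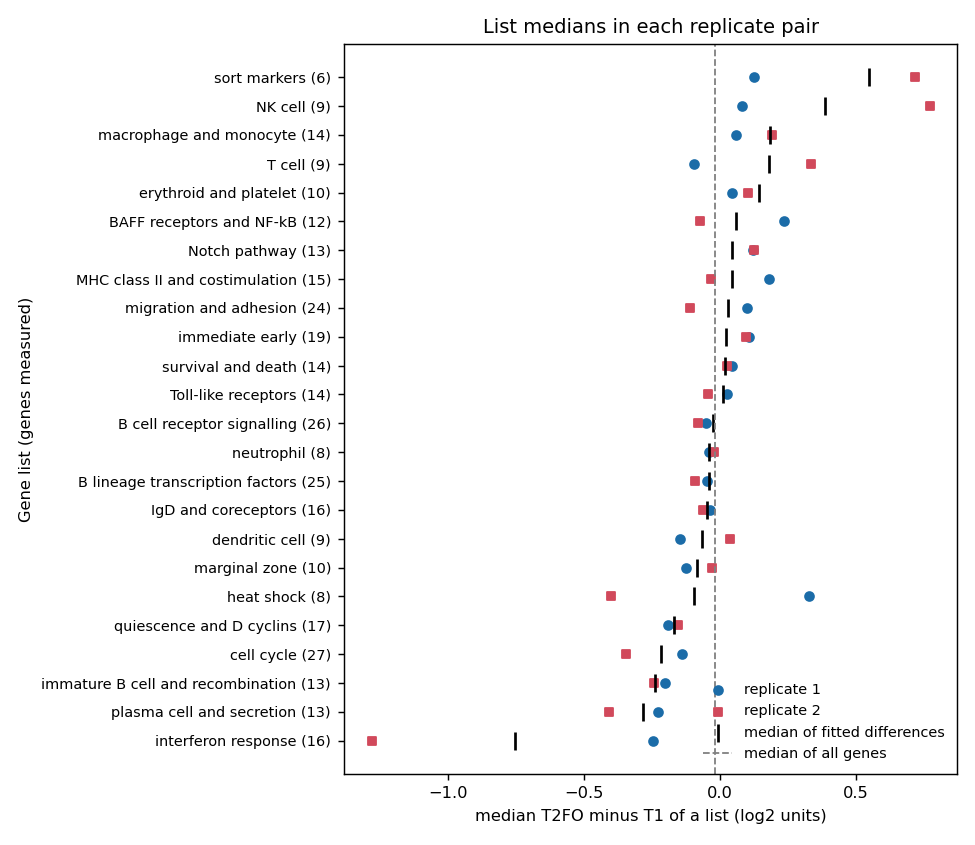
Median difference T2FO minus T1 in log2 units for each of 24 gene lists, with the number of genes measured in brackets. Circles are replicate 1, squares replicate 2, bars the median of the fitted differences and the dashed line the median of all genes, -0.02. The interferon response list lies lowest, at -0.25 in replicate 1 and -1.28 in replicate 2.

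In the fit to 8 arrays the median of the interferon response list lay further from that of all genes than the median of any other list. In pair 1 alone the heat shock (0.33) and BAFF (0.24) lists lay further out, and with the beta-actin covariate the medians of the cell cycle (0.73), marginal zone (0.59), sort marker (0.59) and BAFF (0.41) lists were larger in size. With the filter on the spread in NOD arrays the NK list was larger too, at 0.77. Type I interferons induce antiviral genes, many of which carry the interferon-stimulated response element in their promoters. Of 16 measured genes of 19 listed, 13 were lower in both pairs, against 30.9% of all genes, and 0 were higher in both. The groups did not overlap for 8, all lower in T2FO, against 11.7% of all genes, and 10 had an unadjusted p under 0.05, against 2.08%. On 8 arrays 0 were called (lowest adjusted p of the list 0.624, limma), and on 4 arrays 1 was called, Rsad2. The median difference was -0.76, made of -0.25 in pair 1 and -1.28 in pair 2. By array the median value of the list was 1.21 and 0.34 in T2FO and 1.41 and 1.80 in T1, and -0.02 and -0.09 in the mature FO arrays. T2FO replicate 2 was the array that stood lowest of the 4.

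Rsad2, which encodes the antiviral protein viperin, was 2.31 and 2.67 in T2FO and 3.06 and 3.72 in T1. It differed about equally in both pairs, by -0.75 and -1.04 (-0.90 ± 0.17), but 1 of its 3 probe sets stood at 0.16. Oas2, an antiviral nucleotide synthetase, was 1.23 and 0.30 in T2FO and 1.68 and 1.95 in T1. Ifit1, which binds viral RNA, was 1.005 and 0.77 in T2FO and 1.39 and 2.06 in T1. In both genes the groups did not overlap and pair 2 differed more. Bst2, the surface protein tetherin, was 1.25 and -0.70 in T2FO and 1.96 and -0.04 in T1, so its groups overlapped while its pairs were alike at -0.71 and -0.66. Mx1, a GTPase that blocks viruses, was 1.41 and 0.67 in T2FO and 1.67 and 2.06 in T1. Stat2, a transducer of the response itself, did not stand apart (-0.06 ± 0.18). Without T2FO replicate 2 the median of the list was -0.35, without T2FO replicate 1 it was -1.19, and with the beta-actin control as covariate it was -0.34.

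The promoters of 3 of these genes are shown because Rsad2, Ifit1 and Ifit3 carry the response element close to their start. The windows are the 250 bases before the annotated start in RefSeq, build GRCm38.p6, 5′ to 3′ on the strand of the gene. Capitals mark matches to GAAANNGAAA or its reverse complement TTTCNNTTTC, both strands searched.
Rsad2, chr12:26456453-26456702, minus strand: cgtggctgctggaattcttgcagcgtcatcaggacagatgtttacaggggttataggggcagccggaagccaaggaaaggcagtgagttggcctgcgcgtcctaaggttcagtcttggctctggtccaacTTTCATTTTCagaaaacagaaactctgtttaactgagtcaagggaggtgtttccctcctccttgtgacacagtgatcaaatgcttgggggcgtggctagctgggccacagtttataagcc
Ifit1, chr19:34640639-34640888, plus strand: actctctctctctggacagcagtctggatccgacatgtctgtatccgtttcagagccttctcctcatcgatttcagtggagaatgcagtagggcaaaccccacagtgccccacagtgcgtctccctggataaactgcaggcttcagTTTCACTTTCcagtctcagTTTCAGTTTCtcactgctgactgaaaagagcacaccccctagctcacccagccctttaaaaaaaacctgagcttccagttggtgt
Ifit3, chr19:34583279-34583528, plus strand: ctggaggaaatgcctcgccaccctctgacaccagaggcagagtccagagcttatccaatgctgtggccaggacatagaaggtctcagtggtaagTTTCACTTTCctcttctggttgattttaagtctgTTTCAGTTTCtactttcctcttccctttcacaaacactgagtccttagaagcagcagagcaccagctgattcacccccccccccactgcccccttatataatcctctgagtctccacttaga
Rsad2 has 1 match, which begins 120 bases before the start, and Ifit1 has 2, at 104 and 85 bases. Ifit3 has 2, at 156 and 122 bases before the start. Of the 16 measured genes 10 have a window in the table and 5 of them hold a match (50%), against 978 of all 32851 windows (2.98%). Ifit3, with 2 matches, differed by -0.73 ± 0.34, and Oasl2, with none in its window, by -1.10 ± 0.42. A match describes the letters of the window and is no measure of binding.

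**Figure D4:**
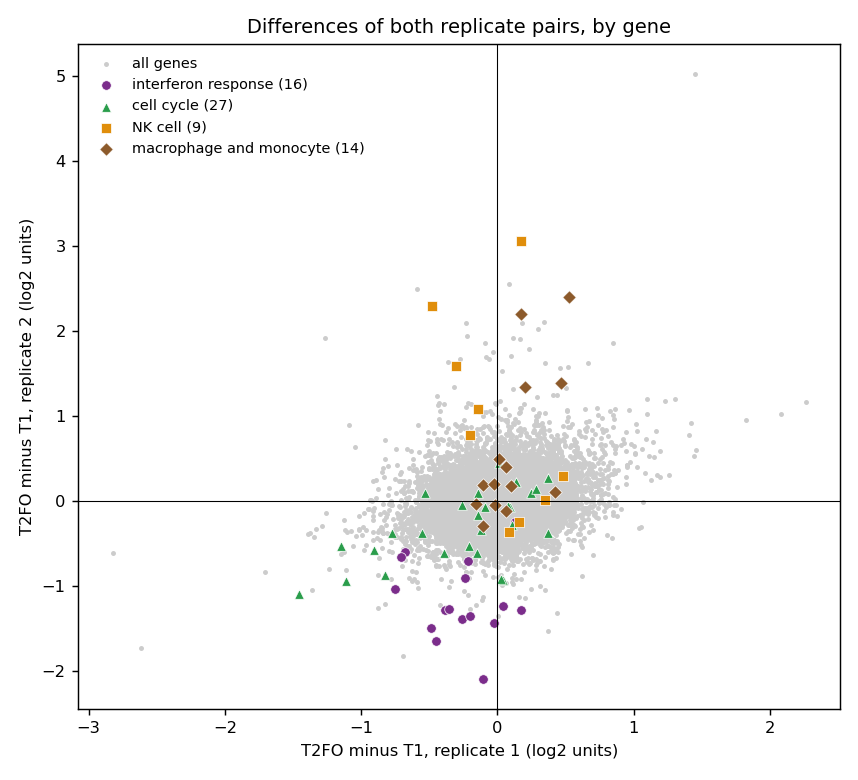
Difference T2FO minus T1 of every gene in replicate 1 (horizontal) and replicate 2 (vertical), in log2 units, with 4 lists marked. The 16 interferon response genes lie below or near 0 on both axes, further down in replicate 2, while several NK cell and macrophage genes are far up in replicate 2 and nearer 0 in replicate 1. The isolated point at the top is Igha, at 1.45 and 5.02.

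In the cell cycle list neither the calls nor the direction held in all settings. Of 27 measured genes of 28 listed 14 were lower and 5 higher in both pairs, against 30.9% and 24.1% of all genes. T2FO lay lower without overlap for 7, against 11.7% of all genes. In the fit to 4 arrays 3 were lower and 0 were called in the fit to 8. Ccnb2, a cyclin of mitosis, was -1.81 and -0.56 in T2FO and -0.36 and 0.54 in T1. Cdk1, its kinase, was -1.21 and -1.11 in T2FO and -0.10 and -0.17 in T1. Ccna2, a cyclin of S phase and mitosis, was -1.18 and -0.49 in T2FO and -0.35 and 0.38 in T1. In these 3 genes both T2FO arrays lay below both T1 arrays. Rrm2, which makes deoxynucleotides, was lower by -1.15 and -0.53, and Mki67 by -0.90 and -0.57. The Mcm genes of DNA replication ranged from -0.15 ± 0.47 for Mcm7 to 0.32 ± 0.30 for Mcm2. T3 replicate 2 stood apart in this list, with a median value of 2.25 against -0.02 in T3 replicate 1, and it enters the spread of the 8-array fit. The list median was -0.22, but it was 0.10 without T1 replicate 1, 0.19 without T2FO replicate 2 and 0.73 with the beta-actin covariate, under which Ccnb2, Cdk1 and Ccna2 also changed sign (0.01, 0.34 and 0.32). The direction of the list is therefore not settled, and whether the T2FO pools held fewer dividing cells or less of these transcripts in each cell cannot be told apart in RNA of a whole subset.

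Genes of antibody secretion were lower in both pairs for 9 of 13 and higher in both for 0, against 30.9% and 24.1% of all genes. On 8 arrays 0 were called and on 4 arrays 1, and the median was -0.28. Jchain, which joins polymeric IgM and IgA, was -0.81 and 1.22 in T2FO and 1.80 and 2.95 in T1 (-2.17 ± 0.67). Both T2FO arrays lay below both T1 arrays. Its difference was -1.001 without T1 replicate 1 and -3.34 without T1 replicate 2. Derl3, of protein disposal in the endoplasmic reticulum, was -0.03 and -0.50 in T2FO and 0.37 and 0.14 in T1. Xbp1 (-0.24 ± 0.15) and Prdm1 (-0.10 ± 0.17), regulators of plasma cells, differed less. A further pair of genes lies outside this list and was named for the size of the difference. Txndc5, a protein disulfide isomerase, was 0.18 and -0.63 in T2FO and 0.87 and 1.195 in T1. Igha, the constant region of IgA, was higher in T2FO, with -0.01 and 4.0 in T2FO and -1.46 and -1.02 in T1. Its difference of 3.24 was the largest positive one among the named genes of this step, and it was 5.02 in pair 2 and 1.45 in pair 1. Without T2FO replicate 2 it was 2.002, and without T1 replicate 2 it was 2.09. In replicates 1 and 2 Igha was -1.14 and 2.42 in T2MZ and 0.66 and 2.67 in MZ, so T2FO replicate 2 was not the only array high in it.

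Some markers of other cells were high in T2FO replicate 2. Part of these were also high in T2MZ and T3 of the same pool and in replicate 2 of FO and MZ. In T2FO replicate 2 Klrd1, a receptor of NK cells, was 3.29, against -0.06 in T2FO replicate 1 and -0.23 and 0.24 in T1. Nkg7 (2.12) and Gzma (1.87), of cytotoxic granules, were high there as well, and at -0.21 and -0.31 in T2FO replicate 1. The median of the 9 NK genes was -0.02 and 0.78 in T2FO and 0.02 and 0.01 in T1, with 0 called. Ncr1, a defining NK receptor, was not high in it, at -0.24. Among 14 macrophage and monocyte genes of 15 listed Vcam1 (2.45), Slc40a1 (2.51), Csf1r (1.97) and Lyz1 (1.43) were high in T2FO replicate 2, while Lyz2, Cd68, Marco and Adgre1 were not, at -0.49 to 0.00. Of 9 measured T cell genes Thy1 stood at 2.08 and the CD3 chains at 0.24 to 0.67 in that array. Their list medians were 0.00 and 0.10 in T2FO against -0.03 and 0.01 in T1 for macrophage genes, and 0.08 and 0.24 against 0.12 and -0.04 for T cell genes. Over all genes, 24 were higher by at least 1.5 in pair 2 and by less than 0.5 in size in pair 1. Without that array the NK list median was -0.03 instead of 0.39, and the T cell list median was -0.21 instead of 0.18. In pair 1 the same markers ran both ways, with Vcam1 at 0.52, Lyz1 at 0.47, Prf1 at 0.48, Thy1 at 0.23, Gzma at -0.30 and Nkg7 at -0.48. In T2MZ replicate 2 Klrd1 was 2.25, Slc40a1 1.80, Vcam1 1.63 and Csf1r 1.58, and the NK receptor gene Klrc1 and the chemokine gene Ccl5 were 1.06 and 1.36, against 2.34 and 2.17 in T2FO replicate 2. In T3 replicate 2 Vcam1 was 2.81, Slc40a1 2.48 and Csf1r 2.40, while Klrd1 was 0.78. The median of the NK list was 0.23 in T2MZ replicate 2 and 0.05 in T3 replicate 2. In replicate 2 of FO and of MZ Vcam1 was 2.82 and 4.59, Slc40a1 2.56 and 4.65, and Lyz1 2.23 and 4.96. The median of the macrophage list was 0.96 and 2.10 there, above that of T2FO replicate 2, while Klrd1 was -0.13 and 0.91. The part of these markers in the other differences, those between T2MZ and T2FO included, was not tested. Neutrophil (8 of 10 measured, median -0.04), dendritic cell (9 of 10, -0.07) and erythroid and platelet lists (10 of 14, 0.14) had 0 called on 8 arrays. On 4 arrays 1 was called in the last of these, Ppbp, a platelet chemokine, which was higher in both pairs, by 0.73 and 1.09.

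**Figure D5:**
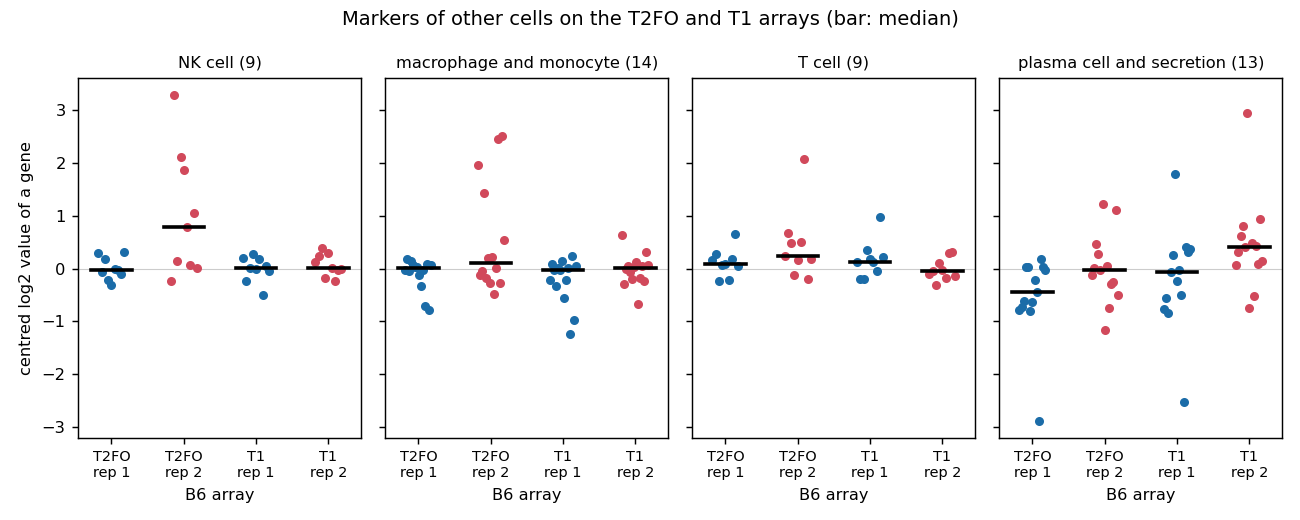
Centred log2 values of NK cell, macrophage and monocyte, T cell and plasma cell genes on the T2FO and T1 arrays. Each point is 1 gene, and the bar is the median. In T2FO replicate 2 the NK median is 0.78, against -0.02 in T2FO replicate 1, and Klrd1 reaches 3.29.

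T2FO was also set against T2MZ, on the marginal zone side, to see where the follicular subset differs. T2MZ minus T2FO is a difference between these subsets and not a step from T1. This comparison shares the T2FO arrays with the one above. In the same 8-array fit 197 genes were called (1.08%), 104 higher in T2MZ (0.572%) and 93 lower (0.511%), but without the replicate block 0 were called and without T2MZ replicate 1 also 0. Ffar2, a receptor for short fatty acids, was 3.44 and 2.70 in T2MZ and -0.72 and -0.06 in T2FO (3.46 ± 0.29, adjusted p = 0.0022). Higher in T2MZ were also Atxn1, Plbd1 and Nebl, by 3.03, 2.89 and 2.77. Sspn was -0.86 and -0.27 in T2MZ and 2.15 and 2.50 in T2FO, and its T1 values were 3.17 and 2.85. Wfdc21, Slco5a1 and Neo1 were lower in T2MZ by -2.71, -2.51 and -2.46, of which Neo1 was not called with the mean of its probe sets (-0.48). Among listed genes the Notch targets Dtx1 (1.95 ± 0.31) and Asb2 (1.89 ± 0.19) and the receptor gene Cr2 (1.40 ± 0.18) were higher in T2MZ than in T2FO. Cd93 (-1.94 ± 0.22), Sox4 (-1.84 ± 0.24) and Lef1 (-1.37 ± 0.16) were lower in T2MZ. For T2FO minus T1 the same genes had 0.24, 0.05, 0.91, -0.32, -0.32 and 0.82. Over all genes the root mean square difference was 0.317 for T2MZ minus T2FO and 0.208 for T2FO minus T1.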

How the data were processed

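RNA of sorted splenic B cells was measured on Affymetrix mouse arrays. The authors deposited values from RMA (named in the submitters' processing notes, with no version) on a log scale whose base is not stated in the sources used here, and the deposited values were taken as log2. Each probe set was centred on its own median across the 24 arrays (at most 5e-07 in size). Of 45101 probe sets 34945 had 1 gene in the platform annotation, 932 had several and 9160 none, besides 64 controls. Of these 34945, 34741 were matched by gene number to the RefSeq table of GRCm38.p6. Each gene was read from its probe set of widest spread in the 12 NOD arrays, which lie outside the comparison. Probe sets can also bind related transcripts.

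Differences were fitted with limma 3.58.1 in R 4.3.3, with 1 mean per group of 8 B6 arrays and the replicate number as a fixed block. Pairing follows from the series text, in which a pool gave all subsets of an experiment. Same-numbered arrays of T1, T2FO, T3 and T2MZ correlated at 0.726 to 0.87 in their deviations, those of FO and MZ with them at -0.64 to -0.335. The 5' beta-actin control was low in replicate 2 of T1, T2FO, T3 and T2MZ (-4.04 to -3.27). In FO (-3.51) and MZ (-3.47) it was low in replicate 1. The correlations therefore cannot tell a shared pool from a shared 5' signal, and they do not test the pairing. P-values rest on 2 pools and on how far the differences between subsets varied from pool to pool. Shifts shared by all subsets of a pool are taken out by the block. A Benjamini-Hochberg adjusted p under 0.05 over 18193 genes counted as called. Errors are standard errors from limma. The fit was tested on simulated data. The members and the 24 gene lists were chosen with earlier results of these data known.

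Genes named are the 4 largest differences each way with no overlap, since none was called, up to 2 of each list by p, all sort markers, and for T2MZ against T2FO the 4 largest called each way. The 37 genes of the 4-array fit and other list members were named after values were seen. The alternatives were no block, other sets of arrays, other probe set choices, a filter, a covariate, centring, robust eBayes and leaving out each array. Leaving out the T3 arrays was added after the data were seen. Python 3.11.15 with matplotlib 3.10.9 drew the figures.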

Additional observations from a re-analysis of the deposited data

Results flagged for a closer look

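The difference T2FO minus T1 of 2 sort markers was not the same in the strains as labelled. For Cr2 it was 0.91 in B6 and -2.49 in NOD, and the interaction was 3.40 ± 0.28 (SE, limma, adjusted p = 7.12e-05). For Cd93 it was -0.32 in B6 and 2.30 in NOD, with an interaction of -2.62 ± 0.33 (adjusted p = 0.000818). Cr2 was -1.39 and -1.19 in the NOD arrays labelled T2FO and 1.24 and 1.16 in those labelled T1, so that T2FO was lower in both NOD pairs and higher in both B6 pairs. Fcer2a did not pass this test, with an interaction of -0.06 ± 0.40. The NOD arrays therefore go against the gates at these labels, and NOD was used here only to choose probe sets and in the alternative with 24 arrays. The cause was not tested. With 2 arrays a group no array could be tested for standing apart within its group.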

How the results depend on the processing

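The count of 0 called genes for T2FO minus T1 was also found without the replicate block (132 genes at an unadjusted p under 0.05), with 12 or 24 arrays, with the other probe set choices, with the filter, with centred arrays, with robust eBayes, with the covariate and without the T3 arrays, as well as when each of the 4 arrays was left out. Only the fit to the 4 arrays, which has other degrees of freedom, called any, 37. For T2MZ minus T2FO the 197 calls became 0 without the replicate block, 0 and 1 over 12 B6 arrays with and without the block, 20 over 24 arrays, 764 without the T3 arrays, and 0 to 24 when 1 array was left out (0 without T2MZ replicate 1, 20 without T2MZ replicate 2, 10 without T2FO replicate 1, 24 without T2FO replicate 2). With the covariate the split was 54 higher and 137 lower, against 104 and 93. Without the block, with 4, 12 or 24 arrays, with robust eBayes or without the T3 arrays, T2FO minus T1 keeps its main value. This follows from the balanced design and is no sign of stability. Of 909 values of named genes for T2FO minus T1 under alternatives, those settings included, 10 changed sign. With the covariate these were Ccnb2 (0.0111), Mzb1 (0.0926), Rrm2 (0.160), S100a8 (-0.0563) and Ptprc (-0.0787). Klf3 became 0.0205 with the probe set of largest spread over 24 arrays. With 1 of the 4 arrays left out, Hspa1b ran from -1.44 to 0.28 and Ighm from -0.0551 to 1.45 (lowest and highest without T1 replicate 1 or 2), Cd24a from -0.0893 to 0.0054, and S100a8 from -0.0032 to 0.316. The cause was not tested. Of 384 list medians under alternatives, again with the settings that cannot move them, 84 moved by more than the standard deviation of the list median over both pairs. The 2 arrays a group and the missing signal level limit every value.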

Other observations

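A few genes outside the lists were chosen after their values were seen. Ifng, Reln and Serinc5 stood high in the T2FO and T1 arrays, while Pbx3 was low there. Ifng, which encodes interferon gamma, was 1.80 and 2.31 in T2FO and 3.13 and 2.64 in T1, above the mature FO arrays at -0.04 and -0.27. Reln, which encodes the secreted protein reelin, was 1.93 and 2.77 in T2FO and 3.32 and 3.15 in T1, and 0.42 and 0.02 in FO, though its second probe set did not differ (0.01). Both were lower in T2FO than in T1 without overlap, and neither was called (adjusted p = 1.00 each, limma).

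Col5a3, a collagen chain, was 0.38 and 0.59 in T2FO and 3.20 and 1.21 in T1, and its second probe set differed by 0.13 in the other direction. Serinc5, a membrane protein, was 1.62 and 1.41 in T2FO and 2.21 and 2.37 in T1, and -0.17 and -0.65 in FO. Pbx3, a homeobox factor, was -0.75 and -0.81 in T2FO and -1.88 and -1.51 in T1, with its second probe set at a difference of -0.03. Afp, known as a fetal liver protein, was -0.40 and 0.99 in T2FO and -1.43 and 0.16 in T1, and 2.29 and 1.41 in FO.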
